A study of Mus musculus with 16 samples.

Results

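Kidney RNA levels of 6 genes, Kap, Gusb, Acsm1, Acsm2, Acsm3 and Acsm5, were examined in 16 mouse kidney libraries. The genes were taken by name from a table of 30277 genes, and all 6 were listed. They were selected on measured values of these same libraries, in particular the low Kap level of 1 KlKl male and the sex difference of the controls, and on their known response to androgens. Those 2 contrasts are therefore given as descriptions with no test. A test was run for KlKl against control in females, for males against females among KlKl mice and for the difference between the KlKl effects of the sexes, all of which share libraries with the described contrasts.

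Klotho, encoded by Kl, is a membrane protein of kidney tubules needed for the response to FGF23, a hormone that lowers blood phosphate. The study set mice homozygous for the recessive Kl mutation, named KlKl here and recorded as having renal failure, against controls recorded as having healthy kidneys, in both sexes. All mice were C57Bl/6J, the mutation having been made congenic by repeated backcrossing, and were 46 to 59 days old. Kidneys were perfused, dissected and flash frozen, and polyadenylated RNA was sequenced from 1 library per animal. The 4 groups of 4 animals were KlKl males (Kl/Kl), control males (replicates 1 and 2 +/Kl, replicates 3 and 4 +/+), KlKl females (Kl/Kl) and control females (all +/Kl). The mutation is present in all cells of the KlKl animals and not only in the kidney. Whole kidney was sequenced, so fewer cells of a type and less RNA per cell cannot be told apart.

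Androgens made by the testis enter cells of the kidney and change gene transcription there. In mice the proximal tubule, the nephron segment that recovers most of the filtrate, is the main kidney site of this response, and many of its transporters and enzymes of lipid and xenobiotic metabolism are more abundant in males. Kap encodes the kidney androgen-regulated protein, a secreted protein of proximal tubule cells. Gusb encodes beta-glucuronidase, a lysosomal enzyme whose induction by androgen in mouse kidney is a classical model of hormone action. The Acsm genes encode medium-chain acyl-CoA synthetases, mitochondrial enzymes that join fatty acids and aromatic acids to coenzyme A.

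The 4 Acsm genes lie side by side on the plus strand of chromosome 7 in build mm39, in the order Acsm5 (ENSMUSG00000030972, chr7:119118686-119144775), Acsm2 (ENSMUSG00000030945, chr7:119153563-119199914), Acsm1 (ENSMUSG00000033533, chr7:119206249-119261739) and Acsm3 (ENSMUSG00000030935, chr7:119360146-119386737). Kap (ENSMUSG00000032758) lies on the minus strand at chr6:133826814-133830726 and Gusb (ENSMUSG00000025534) on the minus strand at chr5:130017852-130031891. The 250 bases before the annotated start are shown for Kap, Acsm2 and Acsm3, the genes whose levels differed most between males and females. They are credited to RefSeq with build GRCm38.p6 and read 5′ to 3′ on the strand of the gene. The Kap window is chr6:133853668-133853917 (minus strand), the Acsm2 window is chr7:119554090-119554339 (plus strand, the upstream one of 2 annotated starts) and the Acsm3 window is chr7:119760673-119760922 (plus strand). Capitals mark the letters TATAAA, those of a TATA box.
Kap: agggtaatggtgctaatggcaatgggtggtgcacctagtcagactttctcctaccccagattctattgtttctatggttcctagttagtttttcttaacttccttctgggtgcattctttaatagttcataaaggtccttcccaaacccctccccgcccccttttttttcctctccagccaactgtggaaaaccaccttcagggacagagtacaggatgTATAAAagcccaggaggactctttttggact
Acsm2: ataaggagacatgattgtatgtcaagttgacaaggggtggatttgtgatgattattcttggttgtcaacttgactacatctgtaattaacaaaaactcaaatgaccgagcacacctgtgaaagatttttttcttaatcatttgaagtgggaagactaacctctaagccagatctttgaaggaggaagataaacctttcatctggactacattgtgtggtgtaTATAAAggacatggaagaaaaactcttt
Acsm3: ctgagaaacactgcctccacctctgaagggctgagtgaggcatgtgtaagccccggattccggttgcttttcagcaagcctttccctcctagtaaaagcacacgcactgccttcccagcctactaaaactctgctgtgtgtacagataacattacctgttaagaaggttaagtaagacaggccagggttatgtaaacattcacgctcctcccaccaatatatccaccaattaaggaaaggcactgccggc

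Among 7 such windows of the 6 genes, TATAAA was found in those of Kap, beginning 31 bases before the start, and of Acsm2, beginning 28 bases before its upstream start. These letters occurred on either strand in 12.4% of 32851 mouse promoter windows of the same length. Other motifs searched included the full androgen response element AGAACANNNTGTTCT, its half-site AGAACA, which is contained in the full element, the HNF4 core CAAAGTCCA and the C/EBP core TTGCNNCAA, each on both strands. None of the motifs listed was in any of the 7 windows. The half-site was in 16.1% of all windows, the C/EBP core in 1.74%, the HNF4 core in 0.384%, and the full element in 0.00913%. GC content was 36.0% in the Acsm2 window, 45.6% in the Kap window and 49.2% in the Acsm3 window, against a median of 52.4% over all windows.

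Levels are given as deposited TPM, in which reads are divided by the whole span of a gene, with its introns. A gene with long introns therefore has a small TPM, and levels of different genes were compared only after reads were recovered and divided by exon length. On that scale, in RPKM over exons (reads relative to exon length and library depth), Kap averaged 22600 in KlKl males, 39800 in control males, 10100 in KlKl females and 20400 in control females. Acsm2 was next in each group, with 354 in KlKl males and 576 in control males. In control males Acsm3 followed at 157, Acsm1 at 73.4, Acsm5 at 27.8 and Gusb at 5.78. In control females the order differed, with Acsm3 lowest at 0.628, below Gusb at 4.16. Neighbours in this order did not overlap between genes over the 4 control males or over the 4 control females. In KlKl males the RPKM of Acsm3 ran from 1.8 in replicate 3 to 117 in replicate 1, across the ranges of Acsm1, Acsm5 and Gusb. Kap alone held 1.74% to 2.59% of all reads in KlKl males other than replicate 3, 0.303% in KlKl male 3, 2.63% to 3.24% in control males, 0.364% to 0.980% in KlKl females and 0.876% to 2.63% in control females.

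Recovered depth was 13007305 to 20070853 reads in males and 8197312 to 14482393 in females. KlKl male 3 had the fewest reads of the males, and its levels are given with and without it because it stood apart for several of the 6 genes. Its Kl level (0.258 TPM), Y-linked Ddx3y (2.73 TPM) and Eif2s3y (3.24 TPM), and Xist (0.593 TPM) went with its labels of genotype and sex. Control female 3 had the fewest reads of all, and ribosomal RNA held 7.07% of its TPM against 0.484% to 1.36% in the other libraries. Library names beginning CFK belong to replicates 1 and 2 of each group and those beginning CFdk to replicates 3 and 4, and what this prefix stands for is not given in the sources used here. The number after the letter S in the library names takes the same set of values in males as in females, and its meaning is not given there either.

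The comparison of KlKl with control males addresses how the male kidney differs in renal failure. Acsm3, Kap and Acsm2 were lower in KlKl male 3 than in any other male, and KlKl males 2 and 4 also lay below every control male for all 3 genes. Acsm3 was at 23.3, 18.3, 0.328 and 13.5 TPM in the 4 KlKl males, against 22.9, 28.9, 27.3 and 23.7 TPM in control males. KlKl male 3 stood far below the rest, KlKl males 2 and 4 lay below every control, and KlKl male 1 lay within the control range, so the groups overlapped by that 1 animal. The difference of log2(TPM + 1), KlKl minus control, was -1.45 (SE 0.61), and -0.49 (SE 0.14) without KlKl male 3. In reads, Acsm3 had 9132, 8778, 115 and 6065 in the KlKl males and 12751 to 15955 in the controls.

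Kap was at 7074, 4370.3, 761 and 4038 TPM in KlKl males, against 7035, 5726, 6283 and 6272 TPM in control males. KlKl male 1 was the highest of all 8, KlKl males 2 and 4 lay below every control, and KlKl male 3 lay lower still. The difference was -1.02 (SE 0.54), and -0.34 (SE 0.38) without KlKl male 3. Acsm2 was at 79.2, 52.4, 30.5 and 61.3 TPM in KlKl males, against 81.5, 69.8, 93.3 and 81.7 TPM in control males. KlKl males 2, 3 and 4 lay below every control and KlKl male 1 above control male 2 only. The difference was -0.61 (SE 0.22), and -0.35 (SE 0.17) without KlKl male 3.

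The other 3 genes did not share this order. Acsm1 was at 2.48, 1.99, 1.15 and 2.26 TPM in KlKl males, against 3.01, 1.87, 2.46 and 2.87 TPM in control males, with KlKl male 3 lowest and the groups otherwise mixed (difference -0.27, SE 0.21). Acsm5 was at 3.26, 2.60, 4.31 and 2.65 TPM in KlKl males, against 2.99, 2.53, 4.68 and 4.23 TPM in control males, with KlKl male 3 highest of its group (difference -0.12, SE 0.16). Gusb was at 1.86, 1.79, 1.64 and 1.30 TPM in KlKl males, against 1.36, 1.46, 2.01 and 1.80 TPM in control males, with the groups interleaved (difference -0.003, SE 0.094). Without KlKl male 3 the differences were -0.12 for Acsm1 (SE 0.21), -0.24 for Acsm5 (SE 0.16) and -0.003 for Gusb (SE 0.10).

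**Figure D1:**
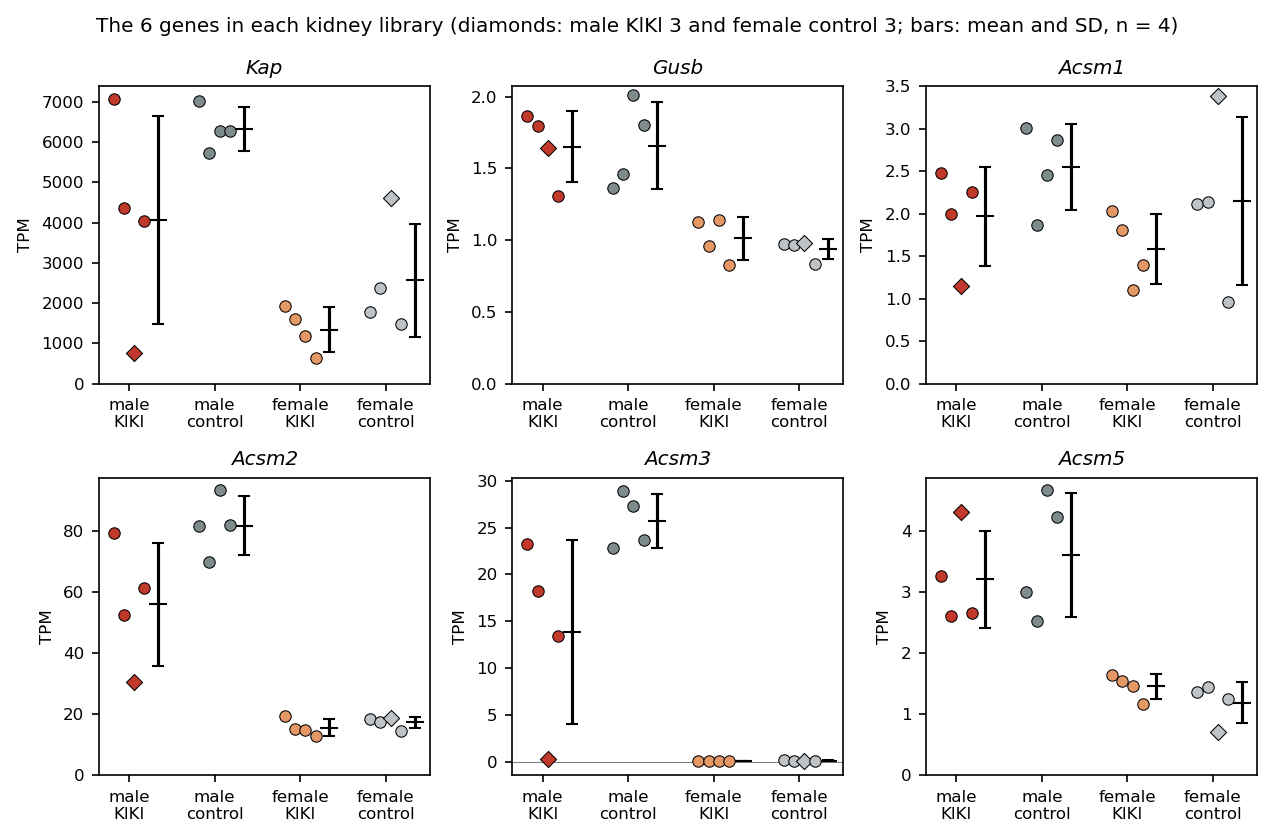
TPM of each of the 6 genes in each library, one panel per gene with its own linear axis, for KlKl males, control males, KlKl females and control females. Points are libraries, diamonds are KlKl male 3 and control female 3, and bars give the mean and SD of 4 libraries. KlKl male 3 sits among the female libraries for Kap at 761 TPM and close to them for Acsm3 at 0.328 TPM, and is the highest KlKl male for Acsm5 at 4.31 TPM.

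On deposited TPM 0 of the 6 genes separated KlKl from control males, while 0.174% of the 8059 genes tested did so with KlKl lower and 11.6% with KlKl higher. The median difference over all genes was 0.18, and -0.001 after median-ratio scaling of the libraries. Mitochondrial genes held 34.4% to 42.7% of the fixed TPM total in KlKl males and 41.2% to 47.5% in control males, and their part in that shift was not tested. After that scaling Kap, Acsm2 and Acsm3 were lower in all 4 KlKl males than in every control male, a separation with KlKl lower that 2.27% of 7850 genes showed. Scaled Kap was 5066, 3724, 588 and 3723 in KlKl males, against 7074, 6000.4, 5878 and 5528 in control males. Scaled Acsm3 was 16.7, 15.6, 0.253 and 12.4 in KlKl males, against 23.01, 30.3, 25.5 and 20.8 in control males. Without KlKl male 3, Acsm5 joined them and 3.83% of genes separated in this direction. As the genes were grouped with this contrast known, nothing is read from these shares.

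The size of the male difference also went with the library name series. Among CFK libraries, KlKl minus control was -0.19 for Kap, -0.31 for Acsm3 and -0.22 for Acsm2. Among CFdk libraries, which hold KlKl male 3 and both wild-type controls, it was -1.84 for Kap, -2.59 for Acsm3 and -0.995 for Acsm2. Each value rests on 2 animals against 2, and the part of name series, control genotype and single animals in it was not tested.

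KlKl male 3 was next set against the other KlKl males, across all genes. For Acsm3 the gap between KlKl male 3 and the lowest other KlKl male was -3.45 on the log2(TPM + 1) scale, the third most negative of 8059 genes. For Kap the gap was -2.41. The genes were selected with the low Kap level of this library known, so these gaps are descriptions and support nothing. Gaps were -0.76 for Acsm2 and -0.48 for Acsm1, while Gusb (0.20) and Acsm5 (0.56) were not lowest in that library. Over all genes tested, 61 (0.76%) had a gap of at least 1 and 12 genes (0.15%) of at least 2 in this direction. KlKl male 3 was 46 days old, and control male 3 of the same age had 6283 TPM of Kap and 27.3 TPM of Acsm3.

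Of 13 other genes listed as androgen-responsive or male-biased in mouse kidney, 12 passed the filter on low TPM, and 11 of these 12 were lower in KlKl male 3 than in the other KlKl males. The share of all genes lowest in that library was not counted, and the list was chosen with earlier results known. The count is therefore a description and nothing is read from it. Slc7a13, an amino acid transporter of the last proximal tubule segment, was at 44.4, 20.6, 4.53 and 35.9 TPM in KlKl males, against 32.8, 30.7, 32.6 and 25.3 TPM in control males. Cyp4b1, a cytochrome P450, was at 141.6, 74.3, 11.2 and 92.7 TPM in KlKl males, against 85.1, 62.7, 97.3 and 81.7 TPM in control males. For both, KlKl male 3 was the lowest male and the other KlKl males spread around the controls. Cyp2e1, another cytochrome P450, was the exception, with 56.7 TPM in KlKl male 3 against 42.4 to 55.2 TPM in the other KlKl males.

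In the male comparison, described here without a test, the median difference of these 12 genes was -0.43 with all libraries and -0.01 without KlKl male 3, beside 0.18 and 0.16 over all genes. Slco1a1, an organic anion transporter, was the gene of this list whose groups did not overlap, with KlKl lower as for 0.174% of all genes tested. It was at 2.37, 1.67, 0.0835 and 1.02 TPM in KlKl males against 3.53, 3.25, 9.62 and 3.59 TPM in control males. Its difference was -1.39 (SE 0.30). Slco1a1 is named because it was the single separated gene, after its values were seen.

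**Figure D2:**
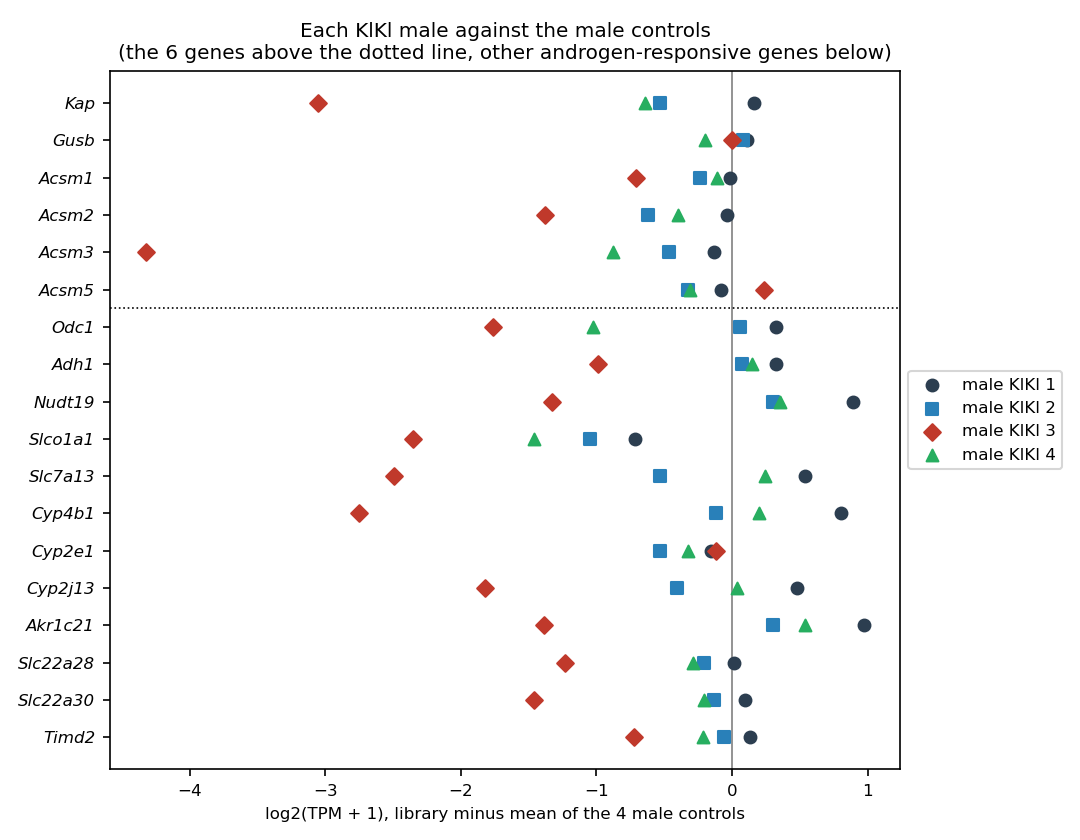
Each of the 4 KlKl male libraries, as log2(TPM + 1) minus the mean of the 4 control males, for the 6 genes (above the dotted line) and 12 other androgen-responsive genes (below). KlKl male 3 (diamonds) is lowest for Acsm3, Kap, Acsm2 and Acsm1 and for 11 of the 12 others, and is not lowest for Gusb, Acsm5 and Cyp2e1.

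Markers of cell types were summed to describe that library. The macrophage sum was 52.0 TPM in KlKl male 3 against 21.9 to 36.1 TPM in the other KlKl males, with all 5 of 5 markers highest there. The injured-tubule sum was 292 against 140.0 to 247 TPM, with 4 of 6 markers highest there. The sum over 8 markers of the early proximal tubule was 300 against 254 to 341 TPM, with 4 markers highest and 2 lowest in KlKl male 3. The sum over 6 markers of the last proximal tubule segment was 126 against 123 to 161 TPM. Of these 6, Aqp1, a water channel gene also of other nephron segments, was at 117 TPM in KlKl male 3 against 69.9 to 72.0 TPM in the other KlKl males. The other 5 were all lowest in KlKl male 3 and summed to 8.95 TPM there, against 53.2 to 89.5 TPM in the other KlKl males, 53.8 to 76.3 TPM in control males, 3.68 to 14.3 TPM in KlKl females and 6.35 to 26.1 TPM in control females. The last list includes Slc7a13 and Cyp7b1, which are also on the androgen-responsive list. The erythrocyte sum was 96.0 against 123 to 479 TPM, and none of the markers was at 0 reads. The part of these cell types in the low Acsm3 and Kap of KlKl male 3 was not tested.

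Genes for receptors and factors that act on androgen-responsive genes were read in the same libraries. Prlr, the prolactin receptor, was at 0.738, 0.555, 1.76 and 1.07 TPM in KlKl males, against 0.172, 0.0841, 0.205 and 0.522 TPM in control males, 1.04 to 1.31 TPM in KlKl females and 1.05 to 2.22 TPM in control females. Every KlKl male was above every control male, as for 11.6% of all genes tested, and KlKl male 3 was above the KlKl females. Of the 9 receptors and factors tested, 3 separated in this direction (Prlr, Cebpa and Cebpb) and 1 with KlKl lower (Hsd17b11), as for 0.174% of all genes tested. These are descriptions, as the contrast was known. Ghr, the growth hormone receptor, was at 1.18 TPM in KlKl male 3 against 2.26 to 3.06 TPM in the other KlKl males.

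Males were compared with females within each genotype. If the libraries of the sexes were processed as separate sets, that cannot be told apart from sex in any of these differences. The difference between the sexes was large for Acsm3, Acsm2 and Kap, moderate for Acsm5, small for Gusb, and not detectable for Acsm1. Among controls, Acsm3 was at 22.9 to 28.9 TPM in males and at 0.179, 0.0888, 0.0310 and 0.0328 TPM in females, where these levels rest on 95, 39, 10 and 15 reads. The difference was 4.62 (SE 0.61) on the log2(TPM + 1) scale, second largest of 8059 genes, and the pseudocount of 1 holds it down, since voom on recovered reads gave 8.13 (SE 1.53). Acsm2 averaged 81.6 ± 9.61 TPM in control males and 17.2 ± 1.90 TPM in control females (SD, n = 4 each), a difference of 2.18 (SE 0.22). Kap averaged 6329 ± 538 TPM in control males and 2562 ± 1413 TPM in control females (SD, n = 4 each), a difference of 1.44 (SE 0.54), and 1.77 without control female 3.

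Acsm5 averaged 3.61 ± 1.01 TPM in control males and 1.19 ± 0.337 TPM in control females (difference 1.06, SE 0.16). Gusb averaged 1.66 ± 0.303 TPM in control males and 0.939 ± 0.0690 TPM in control females (difference 0.45, SE 0.09). Acsm1 averaged 2.55 ± 0.509 TPM in control males and 2.15 ± 0.988 TPM in control females (difference 0.22, SE 0.21; SD, n = 4 each). In controls 5 of the 6 genes, all but Acsm1, were higher in every male than in every female on deposited TPM, where 41.3% of all genes tested were so. After median-ratio scaling 4 of the 6 were, beside 27.5% of genes, and with voom the same 4, beside 20.4%. Kap then overlapped, with scaled control female 3 at 5693 against 5528 in control male 4, and its scaled difference was 1.16 (SE 0.55). Nothing is read from these counts because the contrast was known. The median difference of all genes was 0.26, and 0.06 after median-ratio scaling.

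Among KlKl mice the sex contrast was tested, and 5 of the 6 genes passed, all higher in males, where 54.7% of all genes tested passed and 50.9% passed with males higher. With so many genes called, the size of each difference is given rather than the count alone. Acsm3 was at 23.3, 18.3, 0.328 and 13.5 TPM in KlKl males, against 0.0641, 0.0620, 0.0760 and 0.108 TPM in KlKl females. Acsm3 entered the tested genes through males only, so the count of 5 and the difference of Acsm3 among the filtered genes are descriptions. Every KlKl male, replicate 3 included, lay above every female of either genotype. Acsm3 was higher in males by 3.18 (SE 0.61, 95% interval 1.89 to 4.47), ninth largest of 8059 genes. With no filter on low TPM the difference was the same and the limma adjusted p was 0.00296 by Benjamini-Hochberg. Without KlKl male 3 the difference of Acsm3 was 4.13 (SE 0.14), also a description.

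Acsm2 averaged 55.8 ± 20.2 TPM in KlKl males and 15.5 ± 2.80 TPM in KlKl females (SD, n = 4 each), with KlKl male 3, at 30.5 TPM, still above the highest female at 19.3 TPM. It was higher in males by 1.72 (SE 0.22, limma adjusted p = 3.05e-05, Benjamini-Hochberg). Acsm5 was higher in males by 0.76 (SE 0.16, limma adjusted p = 0.00131), with 3.21 ± 0.796 TPM in KlKl males and 1.46 ± 0.205 TPM in KlKl females. Acsm2, Acsm3, Acsm5 and Gusb were higher in every KlKl male than in every KlKl female, as were 47.2% of all genes tested. Acsm2, Acsm3 and Acsm5 also passed under median-ratio scaling, where 37.9% of genes passed, and with voom, where 28.8% did. Under median-ratio scaling Acsm3 again met the filter through males only.

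Gusb and Kap passed less firmly. Gusb averaged 1.65 ± 0.248 TPM in KlKl males and 1.01 ± 0.149 TPM in KlKl females, and was higher by 0.39 (SE 0.09, limma adjusted p = 0.0026), close to the median of 0.33 over all genes. Under median-ratio scaling, which brings that median to 0.05, Gusb differed by 0.17 (limma adjusted p = 0.0606). Kap was higher in KlKl males by 1.33 (SE 0.54, limma adjusted p = 0.0473), with KlKl male 3 at 761 TPM inside the range of 639.7 to 1922 TPM of the KlKl females. Without KlKl male 3 the Kap difference was 2.01 (SE 0.38), a description, as the genes were selected with the low Kap of that library known. Under median-ratio scaling with all libraries the Kap difference was 0.94 (limma adjusted p = 0.194). Of the 16 libraries left out one at a time, 12 ended the Kap call, with limma adjusted p of 0.0515 to 0.168, highest without KlKl male 1; it held without KlKl male 3, KlKl female 1, control female 3 or control female 4. Acsm1 differed by 0.19 (95% interval -0.25 to 0.64, limma adjusted p = 0.453).

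**Figure D3:**
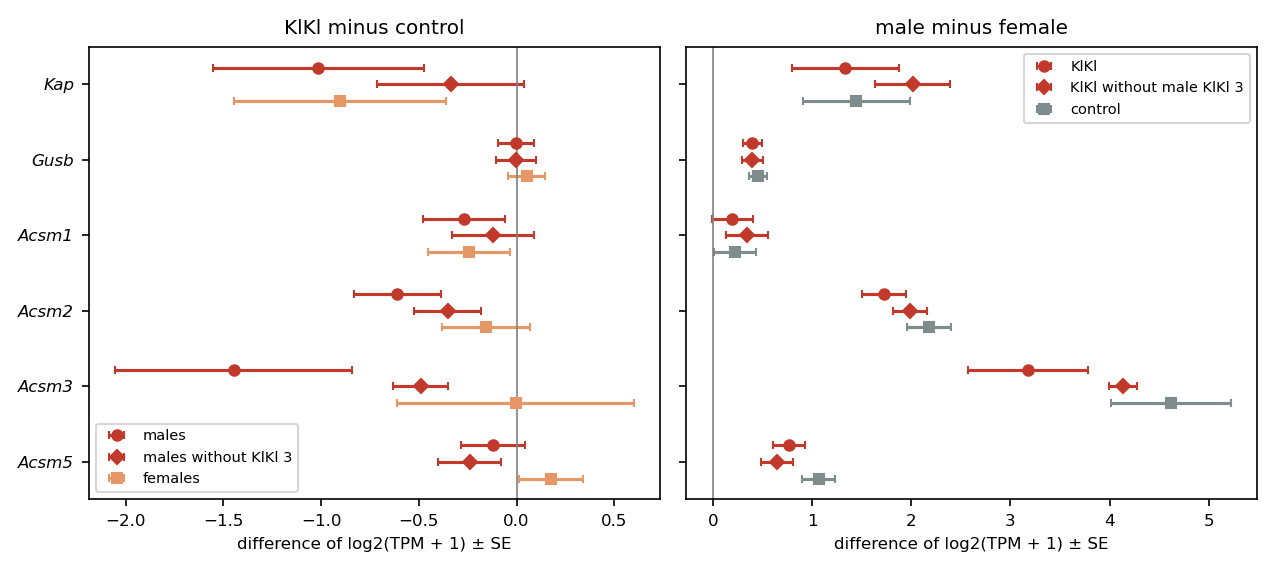
Differences of log2(TPM + 1) with their SE for the 6 genes, KlKl minus control on the left and male minus female on the right, with diamonds for the fit without KlKl male 3. Without that library the male KlKl difference of Acsm3 is -0.49 in place of -1.45, and the sex difference among KlKl mice is 4.13 in place of 3.18.

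Other genes of the same kinds also differed between KlKl males and KlKl females. Of the 12 other androgen-responsive genes tested, 11 passed among KlKl mice, all higher in males, where 50.9% of all genes did so, with a median difference of 1.49 beside 0.33 over all genes. Of these 12 genes 6, Slc7a13 and Cyp2j13 among them, were under 1 TPM in every female and passed the filter on low TPM through males only, so the count and the median are descriptions. Cyp4b1 (4.45), Slc7a13 (4.05), Cyp2e1 (3.39) and Cyp2j13 (1.78) had the largest differences, those of Slc7a13 and Cyp2j13 being descriptions for the same reason. Cyp4b1 and Cyp2e1, which were above 1 TPM in every female, each had a limma adjusted p of 0.000483 or less. Akr1c21, a steroid dehydrogenase, did not pass (0.16, limma adjusted p = 0.766). Of 18 lysosomal genes tested, 16 passed with KlKl males higher, beside the 50.9% of all genes, with a median difference of 0.56 that is larger than the 0.39 of Gusb. After median-ratio scaling 6 of 17 lysosomal genes passed, all with males higher, where 23.5% of all genes passed in that direction, and their median difference was 0.24.

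Of 8 genes tested of acyl-CoA activation and glycine conjugation, the reactions that Acsm enzymes feed, 7 passed with KlKl males higher, beside 50.9% of all genes, and 2 did so after median-ratio scaling, a share close to the 23.5% of all genes. Keg1, a glycine acyltransferase of kidney, differed most (1.44, limma adjusted p = 0.00618), followed by Acss2, an acetyl-CoA synthetase (0.96, limma adjusted p = 2.34e-05). Of 9 receptors and factors tested, 5 passed with KlKl males higher, a share close to the 50.9% of all genes. Among them were Hsd17b11, a steroid dehydrogenase (1.27), Hnf4a, a hepatocyte nuclear factor (1.03), Cebpa, a C/EBP factor (0.74), and Ghr (0.73), each with a limma adjusted p of 0.0022 or less (Benjamini-Hochberg).

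In females, 0 of the 6 genes passed for KlKl against control, where 0.0124% of all genes tested did. By limma 376 genes had an unadjusted p under 0.05, and voom called 2 genes. Kap was at 1922, 1607, 1193 and 639.7 TPM in KlKl females, against 1777, 2375, 4607 and 1487 TPM in control females. The groups overlapped, KlKl females 1 and 2 lying above control female 4, and control female 3 was the highest female by far. Kap differed by -0.90 (SE 0.54, 95% interval -2.05 to 0.24, limma adjusted p = 0.727), and by -0.57 (adjusted p = 0.979) without control female 3. The SE pools the spread of all 4 groups, and without KlKl male 3 that of Kap was 0.35 (limma adjusted p = 0.65).

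After median-ratio scaling every KlKl female was below every control female for Kap, at 759.7 to 1886 against 1901 to 5693, a separation with KlKl lower that 1.01% of genes showed. It remained without control female 3, where 2.79% of genes separated in that direction. The difference under that scaling was -1.04 (limma adjusted p = 0.958). Within name series Kap differed by -0.23 among CFK libraries and -1.58 among CFdk libraries, which hold control female 3.

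The Acsm genes and Gusb gave no difference in females beyond their error. Acsm2 was at 19.3, 15.2, 14.7 and 12.7 TPM in KlKl females, against 18.2, 17.5, 18.8 and 14.5 TPM in control females (difference -0.16, 95% interval -0.63 to 0.32, limma adjusted p = 0.801). Acsm3 was at 27 to 52 reads in KlKl females and 10 to 95 in control females, and the groups overlapped (difference -0.01, SE 0.61). This SE pools the spread of all 4 groups, and was 0.13 without KlKl male 3. Acsm1 (-0.24, limma adjusted p = 0.731), Acsm5 (0.18, adjusted p = 0.74) and Gusb (0.05, adjusted p = 0.845) stood likewise.

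The KlKl effect in males minus that in females was tested for all 6 genes. It was -1.44 for Acsm3 (SE 0.86, 95% interval -3.27 to 0.38), -0.45 for Acsm2 (-1.12 to 0.22) and -0.11 for Kap (-1.73 to 1.51). As Acsm3 was at most 0.179 TPM in any female, its value repeats the male difference of -1.45 and is a description. The intervals of Acsm1, Acsm5 and Gusb also held 0. Each of the 6 had a limma adjusted p of 1.0, and 0.0% of all genes passed, while 175 had an unadjusted p under 0.05 and voom called 0. Without KlKl male 3 the value was smaller, at -0.49 for Acsm3 (SE 0.19) and -0.20 for Acsm2 (SE 0.23), and neither gene passed. The sign of the Kap value was not stable: it turned positive when any 1 of 5 libraries was left out, up to 0.57 without KlKl male 3, and was -0.50 without KlKl male 1.

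The genes around the Acsm cluster were read for the same contrasts. The stretch from the start of Acsm5 to the end of Acsm3 is 268052 bp long, with 8788 bp between Acsm5 and Acsm2, 6335 bp between Acsm2 and Acsm1, and 98407 bp between Acsm1 and Acsm3. Within 100 kb of either end 21 genes were listed and 11 were tested. Neighbours other than Acsm genes were also higher in males among KlKl mice. Thumpd1, an RNA-modification cofactor gene, averaged 5.27 TPM in KlKl males and 2.13 TPM in KlKl females (difference 1.00, limma adjusted p = 2.28e-05), and the pseudogene Ppp1ccb 26.8 and 9.51 TPM (difference 1.45, limma adjusted p = 0.000217). In KlKl male 3 Thumpd1 was at 6.64 TPM, the highest of the KlKl males, and Ppp1ccb at 25.1 TPM, within their range of 24.6 to 29.3 TPM, while Acsm3 was far below its range.

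Eri2, an exonuclease gene on the other strand, overlaps Acsm3 by 18835 bp. Its TPM was 1.90, 1.24, 0.439 and 0.96 in KlKl males, against 1.63 to 1.92 in control males, and at most 0.287 in any female, so it was low in the same male as Acsm3. Eri2 reads were 6.12% to 7.79% of Acsm3 reads in the 7 other males and 128% in KlKl male 3. The library kit marks strand, but whether counting used it is not given in the sources used here, so reads of Acsm3 and Eri2 cannot be told apart, nor those of Acsm1 and its antisense gene models Gm19950 and Gm45792, nor those of Acsm5 and Pdilt. Acsm1 itself was low in KlKl male 3 while Gm19950 (7.37 TPM) and Gm45792 (28.7 TPM) were not.

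**Figure D4:**
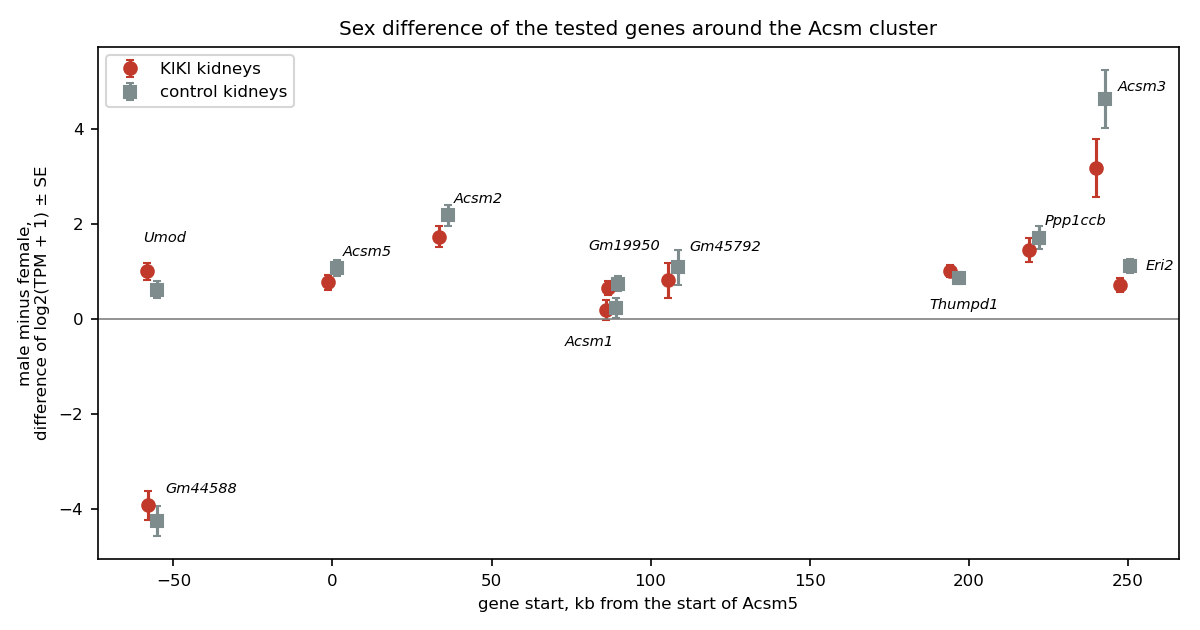
Male minus female difference of log2(TPM + 1) with SE, among KlKl and among control kidneys, for the 11 tested genes around the Acsm cluster, against the distance of the gene start from that of Acsm5 in kb. Acsm3 stands highest at 3.18 in KlKl and 4.62 in control kidneys, Acsm1 lies near 0, and Gm44588 lies far below 0.

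Genes with profiles most like each of the 6 were ranked by the root-mean-square difference of centred log2(TPM + 1) over the 16 libraries, among 1816 named genes with a mean TPM of at least 5. Nearest to Kap were Slc17a3 (0.47), an organic anion transporter, Keg1 (0.57) and Pecr (0.58), a peroxisomal reductase. Nearest to Acsm2 were Amacr (0.21) and Crot (0.24), both peroxisomal lipid enzymes, and Ugt3a1 (0.24). Nearest to Acsm3 were Ugt2b38 (0.51), a glucuronosyltransferase of a family with near-identical copies, Slc7a13 (0.53) and Cyp4b1 (0.57). In KlKl male 3 Ugt2b38 was at 0.968 TPM, against means of 24.3 TPM in all KlKl males, 43.6 TPM in control males, 1.16 TPM in KlKl females and 2.58 TPM in control females.

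The genes nearest to Acsm5 were Selenbp1 (0.15), Pgpep1 (0.16) and Lonp1 (0.17), and Selenbp1 was at 48.7 TPM in KlKl male 3 against a mean of 40.6 TPM over the KlKl males. Gusb was nearest to Ap2m1, Thap7 and Psmd7, and Acsm1 to H2bc4 and Hspe1, all from 0.10 to 0.20. Among the 6 themselves the closest pairs were Gusb with Acsm5 (0.31), Gusb with Acsm1 (0.34) and Acsm1 with Acsm5 (0.55), and the most distant was Acsm1 with Acsm3 (2.04). These distances grow with the spread of a gene and are descriptions over libraries that share sex and depth.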

How the data were processed

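The authors deposited 1 table of TPM for 16 mouse kidney libraries, with build mm39 and Partek named per the submitters' processing notes; aligner, counting rule and annotation release are not stated there. A repeated row was counted once. The deposited TPM sum to 309446 in every library and follow reads plus 0.0001 over the gene's span. Reads recovered from them were whole within 0.1 reads for 81.4% of values under 20 reads, so read-based values rest on that inference. The table held 0 columns of other samples.

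Limma 3.58.1 in R 4.3.3 fitted 1 mean per group to log2(TPM + 1) of the 8059 genes that reached a TPM of 1 in 4 libraries or more, with a mean-variance trend and 12 residual degrees of freedom. Adjusted p-values are Benjamini-Hochberg over all genes within a contrast, with a threshold of 0.05. All 6 genes passed the filter, Acsm3 through males only. P-values and SEs measure the spread between animals, pooled for each gene over the 4 groups, so a library far from its group widens every contrast. The fit was checked on simulated data. Alternatives were another pseudocount (0.1), no filter, other scalings, voom on recovered reads (10 reads or more, 17405 genes), no trend, covariates, subsets and each library left out.

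The 6 genes, the gene lists, the tests and the naming rule were chosen with earlier results of these data known. The rule names all 6 genes, up to 4 passing genes of each list with the largest difference, and the 3 most similar genes; some genes it names, and a motif searched, are not reported here. Exon lengths were taken from GENCODE vM21. Sequences are RefSeq's (GRCm38.p6) and were used only for the promoter windows; coordinates of genes are those of the deposited table. Scripts ran in Python 3.11.15 with pandas 2.3.3.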

Additional observations from a re-analysis of the deposited data

Results flagged for a closer look

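Gusb in control female 4, at 0.835 TPM, stood apart from the other control females, which lay at 0.968 to 0.980 TPM. The gap to the nearest of them was 0.912 of the range of the group, above Dixon's 95% critical value of 0.829 for 4 samples. In all 24 sets of 4 values were examined (6 genes in 4 groups), and chance alone flags about 1 in 20. The value lies within the range of the KlKl females, which begins at 0.826 TPM.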

How the results depend on the processing

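Of 864 differences of the 6 genes under alternative settings, 25 lost the call, 16 in the untested contrasts moved by more than 1 SD between replicates, and the other 823 did neither; no called difference changed sign. The number of the 6 genes that separated KlKl from control males was 0 on deposited TPM, 3 with median-ratio scaling, 2 with scaling to nuclear genes other than the 6, 3 with voom, 0 to 3 with each library left out (3 without KlKl male 1), and 4 with median-ratio scaling without KlKl male 3, an alternative chosen after seeing the data. The number called between the sexes among KlKl mice was 5, against 3 with median-ratio scaling and with voom, and 4 to 5 with each library left out. Kap lost its call in that contrast also with a pseudocount of 0.1 (limma adjusted p = 0.0514), with no filter (0.117), with nuclear scaling (0.0508), with age as a covariate (0.0648) and with the libraries of the contrast alone (0.0847). The cause was not tested.

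Replicate numbers did not pair the animals: of 24 pairs 5 had deviations correlated above 0.1 (range -0.222 to 0.219). With the replicate number as a replicate block 4 genes were called between the sexes among KlKl mice, and limma's adjusted p of Kap was 0.0578. The filter and pseudocount act on TPM over gene span, so some long genes were not tested, and differences of Acsm3 are understated. Reads of overlapping genes cannot be told apart. With 4 animals a group the intervals are wide, as for Kap.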

Other observations

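Next to the Acsm cluster, the antisense gene model Gm44588, which lies within Umod, the gene of uromodulin made by the thick ascending limb, was lower in males. It averaged 0.599 TPM in KlKl males, 0.249 TPM in control males, 21.8 TPM in KlKl females and 24.2 TPM in control females. Among KlKl mice the difference was -3.93 (SE 0.31, limma adjusted p = 6.23e-07, Benjamini-Hochberg). Its reads were 8.58% to 31.2% of those of Umod in females and at most 0.448% in males. Whether counting used strand is not given, so reads of Gm44588 and Umod cannot be told apart. A difference in library processing between the sexes cannot be told apart from sex here either. Umod itself was higher in KlKl males than in KlKl females, by 0.99 (limma adjusted p = 0.000316). Cebpb, a C/EBP factor gene, was at 37.5 TPM in KlKl male 3 against 14.2 to 21.7 TPM in the other KlKl males. Hsd17b11 was lower in every KlKl male, at 4.44 to 6.18 TPM, than in every control male, at 6.54 to 15.5 TPM, as were 0.174% of all genes tested.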
